A study of Mus musculus with 79 samples.

Results

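The 30 genes described here belong to the myelinating Schwann cell and its lineage, and their symbols were given as a list. All 30 were found among the 24033 usable symbols of the deposited gene count table. By their known roles they are 3 proteins of compact myelin (Mbp, Pmp22 and Pmp2), 2 scaffold proteins of the outer Schwann cell membrane (Prx and Drp2), 5 myelin membrane and lipid raft proteins (Ncmap, Pllp, Cnp, Mal and Cd9), and 2 enzymes of myelin lipid synthesis (Fa2h and Ugt8a). Others are 7 proteins of axon contact, nodes and junctions (Mag, Cldn19, Gjb1, Gldn, Gjc3, Cadm4 and Mpp6), 2 secreted ligands (Dhh and Lgi4) and 2 receptors (Erbb3 and Fgfr3). The rest are the guanine nucleotide exchange factor Arhgef10, the calcium-binding protein S100b and 5 transcription factors (Egr2, Pou3f1, Sox10, Sox2 and Foxd3). RNA came from L4-5 dorsal root ganglia (DRG), which hold the cell bodies of the sensory neurons of the sciatic nerve together with satellite glia, Schwann cells and other cells. All mice, controls too, were of the BAC-TRAP line BR145-GFP, and were either uninjured (naive) or sampled 1 h, 12 h, 24 h, 48 h, 72 h or 7 d after both sciatic nerves were crushed. Each time was measured in Input, the total RNA of the ganglia, and in IP, the RNA that chicken anti-GFP on beads pulled out of the same tissue type. The 40 Input libraries were 7 naive and 5, 6, 5, 6, 7 and 4 at the successive times, and of 39 IP libraries 4 were from 24 h and the others were as many as in Input. The labels give no age or sex of the animals, no number of animals per library, and not the cells in which BR145 drives its transgene.

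Schwann cells wrap axons of the peripheral nervous system, and those that choose large axons build myelin, a stack of membrane rich in a few proteins and in galactolipids. Sox10 and Egr2 are the transcription factors known to drive this programme, neuregulin acts on the cells through the receptor Erbb3, and Dhh is the ligand by which they signal to the nerve sheath. In the DRG, myelin surrounds axons within and next to the ganglion, while each cell body is covered by satellite glia, which share Sox10, S100b and Erbb3 with Schwann cells. After a nerve crush, Schwann cells beyond the injury are known to switch off myelin genes and to take on a repair state, and the DRG lies on the other side of the injury.

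Depth was 8737964 to 22221882 gene counts for an Input library and 3614942 to 16721527 for an IP library. Of these 1.65% to 25.5% in Input and 1.37% to 75.1% in IP fell on only a pair of genes, Rn45s (the precursor of ribosomal RNA) and Lars2, and 6 IP libraries were above 50%. The 7 d libraries had the lowest shares, with 1.65% to 2.74% in Input and 1.37% to 8.16% in IP, against medians of 14.9% and 32.1% in naive libraries. Every 7 d library was also deeper than every naive library of its fraction. In IP the counts were 12440226 to 16721527 at 7 d against 4699012 to 11667251 in naive libraries. In Input they were 18233098 to 22221882 against 9869384 to 16912222. The part of depth in the 7 d calls was not tested. The mean correlation of a library with the others of its group was 0.782 to 0.924 in IP and 0.959 to 0.988 in Input. All 6 libraries of each fraction at 12 h had more Y-linked Ddx3y than Xist RNA, while Xist was the higher in 6 of 7 naive IP and 5 of 7 naive Input libraries. Levels are given in CPM, counts scaled by library size and by a TMM factor that adjusts for differences in composition between libraries. A level is thus relative to the other RNA of a bulk sample and not an exact share of it. In a bulk sample, fewer cells of a type and less RNA per cell cannot be told apart. Changes are log2 values with standard errors from edgeR, a gene was called at a Benjamini-Hochberg adjusted p under 0.05 over all genes tested, and all 30 genes passed the filter on low counts in every fit.

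In IP, 7 of the 30 genes were called lower at 12 h and 2 at 24 h, none was called at 48 h and 72 h, and at 7 d 5 fell and 2 rose. The calls at 12 h and 24 h did not hold in every alternative given below. The median log2 change of the 30 genes against naive was -0.43, -0.70, -0.54, -0.14, -0.14 and -0.17 at the 6 times in order. That of all genes tested ran from -0.20 to 0.04. At 1 h 1 of 30 was called, lower (Pmp22), against 0.541% higher, 0.654% lower and 1.2% in either direction among all genes. At 12 h 7 were lower and 0 higher (of all genes 0.89% higher, 0.783% lower and 1.67% in either direction): Mbp, Pmp22, Mag, Prx, Drp2, Cldn19 and Pou3f1, by -1.01 to -1.32 on the log2 scale. At 12 h 6 of the 30 estimates were above 0. At 24 h Mbp and Ncmap were lower and none higher (of all genes 1.44% higher, 0.445% lower and 1.88% in either direction). Without IP 24 h replicate 2, 3 or 4 or naive replicate 1 the count was 0. Both at 48 h and at 72 h edgeR called 0 of 30, with 5 and 2 genes at an unadjusted p under 0.05 and 2 and 1 called by DESeq2. The calls among all genes were 1.8% higher, 0.734% lower and 2.54% in either direction at 48 h, and 1.7% higher, 0.858% lower and 2.56% in either direction at 72 h. At 7 d 5 genes were lower (Mbp, Prx, Drp2, Ugt8a and S100b) and 2 higher (Dhh and Foxd3), against 10.3% higher, 10.5% lower and 20.8% in either direction among all genes. With the share of Rn45s and Lars2 as a covariate, which was lowest at 7 d, 3 were called at 7 d and 2 of them, Prx and S100b, were among the 7. The F-test over all 6 times called 16 of 30 in IP, against 22.1% of all genes.

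The 12 h libraries differed from naive also in Xist and Ddx3y. With the difference of the 2 as a covariate edgeR called 0 of 30 at 12 h, with log2 changes of -0.70 (Mag) to -1.63 (Pou3f1) and a smallest adjusted p of 0.12 (Pmp22) among the 7. At an unadjusted p under 0.05 there were 16 genes without and 9 with the covariate, and DESeq2 without it called 11. Without the library IP 12 h replicate 1, 4 or 6 the count was 3, without naive replicate 1 or 5 it was 4, and without the libraries over 50% Rn45s and Lars2 it was 5. Markers of other cells moved at the same time, and their part in the result was not tested. For the marker calls in IP that follow, 0.541% of all genes were higher and 0.654% lower at 1 h. These shares were 0.89% and 0.783% at 12 h, and 1.44% and 0.445% at 24 h. In IP the summed level of 9 macrophage markers was 72.8 to 130.1 CPM (median 100.3) at 12 h against 138 to 632 CPM (median 259) in naive libraries, and 4 of the 9 fell. The summed level of 6 fibroblast markers was 226 to 483 CPM (median 309.9) against 598 to 1381 CPM (median 870.4), and 4 of the 6 fell. The 10 neuron markers summed to 9277 to 35762 CPM (median 29019) against 13330.5 to 18969.8 CPM (median 14709), with 1 of 10 higher. The same lists had moved in IP at 1 h, where Pmp22 was called, and at 24 h, where Mbp and Ncmap were. The macrophage sum was 67.1 to 112 CPM (median 85.1) at 1 h and 110.2 to 128 CPM (median 122) at 24 h, with 6 and 3 of 9 lower, and the fibroblast sum 294 to 403 CPM (median 366) and 259 to 344 CPM (median 294), with 3 and 4 of 6 lower. All libraries of both times lay below every naive library in both sums. The neuron sum was 16299.9 to 40103 CPM (median 30937) at 1 h, with 3 of 10 higher, and 20035 to 29583 CPM (median 23416) at 24 h, with 0 of 10 called by edgeR and 3 at an unadjusted p under 0.05. The 24 h libraries were above every naive one in that sum, and the 1 h libraries overlapped with them. At 12 h the satellite glia markers in IP summed to 769 to 2189 CPM (median 1005), with Fabp7 lower (-1.52 ± 0.23). Naive IP libraries were at 1219.6 to 2452 CPM (median 1619) in that sum. In Input the fibroblast sum was 336 to 694 CPM (median 436) at 12 h against 563 to 1242 CPM (median 817) in naive libraries.

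In Input, the most calls came at 7 d, when 14 of 30 were higher and 5 lower, against 28.3% and 25.1% of all genes and 53.5% in either direction. Erbb3, Dhh, Fa2h, Gldn, Pllp, Pmp22, Cd9, Lgi4, Mal, Mag, Cnp, Sox10, Cadm4 and Arhgef10 rose, and S100b, Pmp2, Mpp6, Sox2 and Ncmap fell. The median change was 0.53 over the 30 genes and 0.03 over all genes tested. Earlier, 1 gene was higher and 1 lower at 1 h (of all genes 4.8% higher, 5.46% lower and 10.3% in either direction), and 0 and 1 at 12 h (3.1% higher, 1.89% lower and 4.98% in either direction). At 24 h there were 2 and 1 (7.26% higher, 4.29% lower and 11.6% in either direction), or 1 and 1 under DESeq2-type size factors. At 48 h there were 2 and 2 (18% higher, 18.1% lower and 36.1% in either direction), and at 72 h 0 and 6 (12.2% higher, 11.2% lower and 23.4% in either direction). Single libraries decided some of these early counts. Without Input 1 h replicate 3 or 4 the count at 1 h was 4 or 1, and without Input 12 h replicate 5 that at 12 h was 2. Without Input 24 h replicate 3, 4 or 5 or naive replicate 1 or 3 that at 24 h was 1, and the count at 48 h was 2 without Input 48 h replicate 4 or naive replicate 6. From 72 h to 7 d 20 of the 30 rose and 3 fell, against 26.4% higher, 23.1% lower and 49.5% in either direction among all genes, with a median of 0.79. The same step in IP had 2 higher (Dhh and Cd9) and 3 lower (Mbp, Prx and Drp2), against 6.86% higher, 6.35% lower and 13.2% in either direction among all genes. Without the library IP 7 d replicate 4 the count of 5 was 2, and without IP 7 d replicate 1 or IP 72 h replicate 4, 5 or 6 it was 3. The F-test over all times called 25 of 30 in Input, against 68.5% of all genes.

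**Figure D1:**
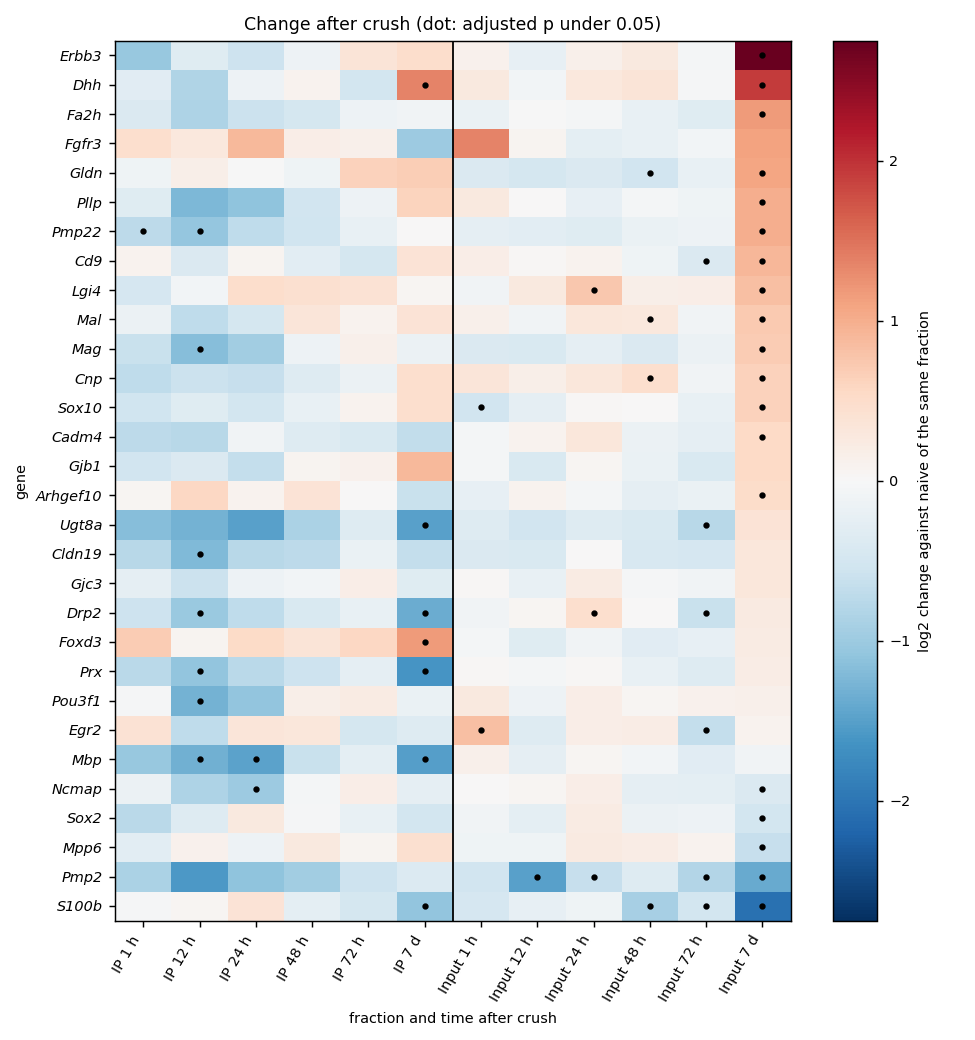
Log2 change of each of the 30 genes (rows, in the order of their Input change at 7 d) at each time against naive of the same fraction, with IP in the left 6 columns and Input in the right 6. Dots mark an adjusted p under 0.05. In IP they mark 7 of 30 genes at 12 h and 7 at 7 d, where 1.67% and 20.8% of all genes were called. In Input they mark 19 at 7 d, where 53.5% of all genes were called and values run from 2.72 for Erbb3 to -2.06 for S100b.

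Among the compact myelin proteins, Pmp22, a membrane protein whose dosage is critical for myelin, was low in IP at 1 h and 12 h. In naive IP libraries it was at 619.9 to 1274 CPM (median 679), at 1 h at 361, 434, 465, 517 and 574 CPM, and at 12 h at 257 to 436 CPM (median 385). At 24 h it was at 380.5, 440.4, 521 and 646 CPM, and at 48 h at 464 to 783 CPM (median 519). It was at 72 h at 585 to 835 CPM (median 701) and at 7 d at 567, 725, 935 and 1115 CPM. All 6 libraries at 12 h and all 5 at 1 h lay below every naive library, and those at 72 h and 7 d overlapped with naive. The change was -0.72 ± 0.20, adjusted p = 0.048 at 1 h, -1.06 ± 0.19, adjusted p = 0.000427 at 12 h and 0.01 ± 0.21, adjusted p = 0.979 at 7 d. The 1 h call lay close to the threshold and ended when any 1 of the 5 libraries at 1 h was left out. In Input the gene was at 561 to 1038 CPM (median 677) in naive libraries and at 1262, 1295, 1464 and 1647 CPM at 7 d, when all 4 libraries were above all naive ones, and it rose by 0.998 ± 0.15, adjusted p = 2.72e-07.

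Mbp, the basic protein that holds the inner faces of myelin membranes together, was spread widely in naive IP, at 1012 to 4689 CPM (median 2457). It was at 339 to 1661 CPM (median 667) at 12 h, 737, 826, 973 and 1047 CPM at 24 h, 1149.8 to 3045 CPM (median 2038) at 72 h and 682, 824, 943 and 1140.3 CPM at 7 d. The groups at 24 h and 7 d overlapped only with the lowest naive library. The changes were -1.32 ± 0.33, adjusted p = 0.0255 at 12 h, -1.47 ± 0.39, adjusted p = 0.0328 at 24 h, -0.27 ± 0.31 at 72 h (not called) and -1.51 ± 0.39, adjusted p = 0.00487 at 7 d. Without naive replicate 1, the highest library, the 12 h and 24 h changes were -1.07 and -1.22 and neither was called. With the Rn45s and Lars2 share as a covariate the 7 d change was -0.60 and was not called (adjusted p = 0.494). In Input Mbp was called at none of the 6 times, with changes from -0.31 to 0.14. Pmp2, a fatty acid-binding protein of myelin, fell in Input. It was at 15.0 to 40.1 CPM (median 36.1) in naive libraries, 6.57 to 15.3 CPM (median 10.4) at 12 h and 7.88, 10.6, 11.1 and 15.1 CPM at 7 d. The changes called were those at 12 h (-1.50 ± 0.21, adjusted p = 3.17e-06), 24 h (-0.64 ± 0.22), 72 h (-0.80 ± 0.20) and 7 d (-1.38 ± 0.24, adjusted p = 5.26e-06). Naive and 12 h libraries met only at the edge, where the lowest naive library was at 15.0 CPM and the highest at 12 h at 15.3 CPM. In IP its largest change, -1.58 ± 0.47 at 12 h, did not pass the test (adjusted p = 0.0647).

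Prx (periaxin) and Drp2 (dystrophin-related protein 2) form a complex that ties the outer Schwann cell membrane to the basal lamina, and of the 30 genes Prx had the largest fall called in IP and Drp2 and Prx the largest IP to Input ratios in naive mice. The promoter windows of Prx and of Dhh, the called members with the largest fall and the largest rise in IP, are printed to show what lies at their start sites. They are from RefSeq on GRCm38.p6, the build the submitters' notes name, in lower case with motif matches in capitals. The Prx window is chr7:27499074-27499373 on the + strand and the Dhh window is chr15:98898491-98898790 on the - strand, each from 250 bases before to 50 bases after a start site.
Prx: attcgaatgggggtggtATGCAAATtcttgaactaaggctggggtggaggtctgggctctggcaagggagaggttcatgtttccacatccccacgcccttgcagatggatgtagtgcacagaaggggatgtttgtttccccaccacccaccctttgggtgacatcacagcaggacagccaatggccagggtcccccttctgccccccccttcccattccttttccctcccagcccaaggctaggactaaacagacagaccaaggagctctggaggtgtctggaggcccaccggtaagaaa
Dhh: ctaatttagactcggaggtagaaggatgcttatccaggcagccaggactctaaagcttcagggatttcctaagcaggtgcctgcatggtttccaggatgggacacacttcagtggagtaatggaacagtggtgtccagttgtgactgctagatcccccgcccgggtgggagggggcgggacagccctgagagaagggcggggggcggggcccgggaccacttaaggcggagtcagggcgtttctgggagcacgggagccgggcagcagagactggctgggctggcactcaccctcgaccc
The capitals in the Prx window mark ATGCAAAT, the octamer bound by POU factors such as Pou3f1, on the + strand -233 bases from the start site, and the Dhh window held none of the 4 motifs searched on both strands. These were the octamer, found in 1.74% of all 32851 windows in the table, the Sox core ACAAAG (18.7%), the Egr core GCGNGGGCG (5.55%) and TATAAA (13.6%). Of the 30 genes, 21 had windows (37 in all). The octamer was found in 4 of the 37 windows, from 2 genes (Egr2 and Prx). The Sox core was in 7 windows, from 5 genes (Cnp, Gjb1, Mag, Mpp6 and Sox2). The Egr core was in 2 windows, from 2 genes (Fgfr3 and Mpp6), and TATAAA in 1 (Gjb1). The 4 motifs were searched separately, so that matches may overlap, and a match describes the letters of the window only.

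Prx was at 275 to 641 CPM (median 473) in naive IP, at 219, 233, 247, 261 and 306 CPM at 1 h, and at 126 to 275 CPM (median 194) at 12 h. It was at 228, 257, 277 and 300.3 CPM at 24 h, 228 to 405 CPM (median 287) at 48 h, 229 to 524 CPM (median 381) at 72 h and 96.2, 116, 130.1 and 251 CPM at 7 d. At 12 h 5 of 6 libraries, and at 7 d all 4, lay below every naive library, while at 72 h only 1 of 7 did. The change was -1.08 ± 0.23, adjusted p = 0.00337 at 12 h, -0.25 ± 0.21 at 72 h (not called) and -1.61 ± 0.27, adjusted p = 1.35e-05 at 7 d. The step from 72 h to 7 d was -1.36 ± 0.26, adjusted p = 0.000421. In Input Prx was called at no time, with 104 to 215 CPM (median 128) in naive libraries and 127, 129, 177 and 221 CPM at 7 d (0.21 ± 0.17, not called).

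Drp2 was called lower in IP at the same times, 12 h and 7 d. It was at 132 to 518 CPM (median 249) in naive libraries, 76.4 to 188 CPM (median 122) at 12 h, 109.8 to 313 CPM (median 272) at 72 h and 84.3, 103, 109.5 and 138 CPM at 7 d. At 7 d 3 of 4 libraries lay below all naive ones. The changes were -1.01 ± 0.27, adjusted p = 0.0362 at 12 h and -1.36 ± 0.32, adjusted p = 0.00165 at 7 d. Without naive replicate 1, which had 518 CPM, the 12 h change was -0.76 and was not called. With the Rn45s and Lars2 share as a covariate the 7 d change was -0.77 and was not called (adjusted p = 0.207). Drp2, like Gjb1, is on the X chromosome, and all 12 h libraries of both fractions had more Ddx3y than Xist RNA. The part of sex in the 12 h fall of Drp2 in IP was not tested beyond the Xist and Ddx3y covariate above. In Input Drp2 was at 54.0 to 99.6 CPM (median 79.3) at 12 h. It was higher in Input at 24 h (0.45 ± 0.15, adjusted p = 0.0483) and lower at 72 h (-0.62 ± 0.14, adjusted p = 0.00109). Its libraries were at 56.3 to 108 CPM (median 72.7) in naive mice, 95.2, 97.4, 102, 106 and 126 CPM at 24 h and 38.1 to 67.6 CPM (median 50.3) at 72 h. The 24 h call ended when any 1 of the 5 libraries at 24 h was left out.

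**Figure D2:**
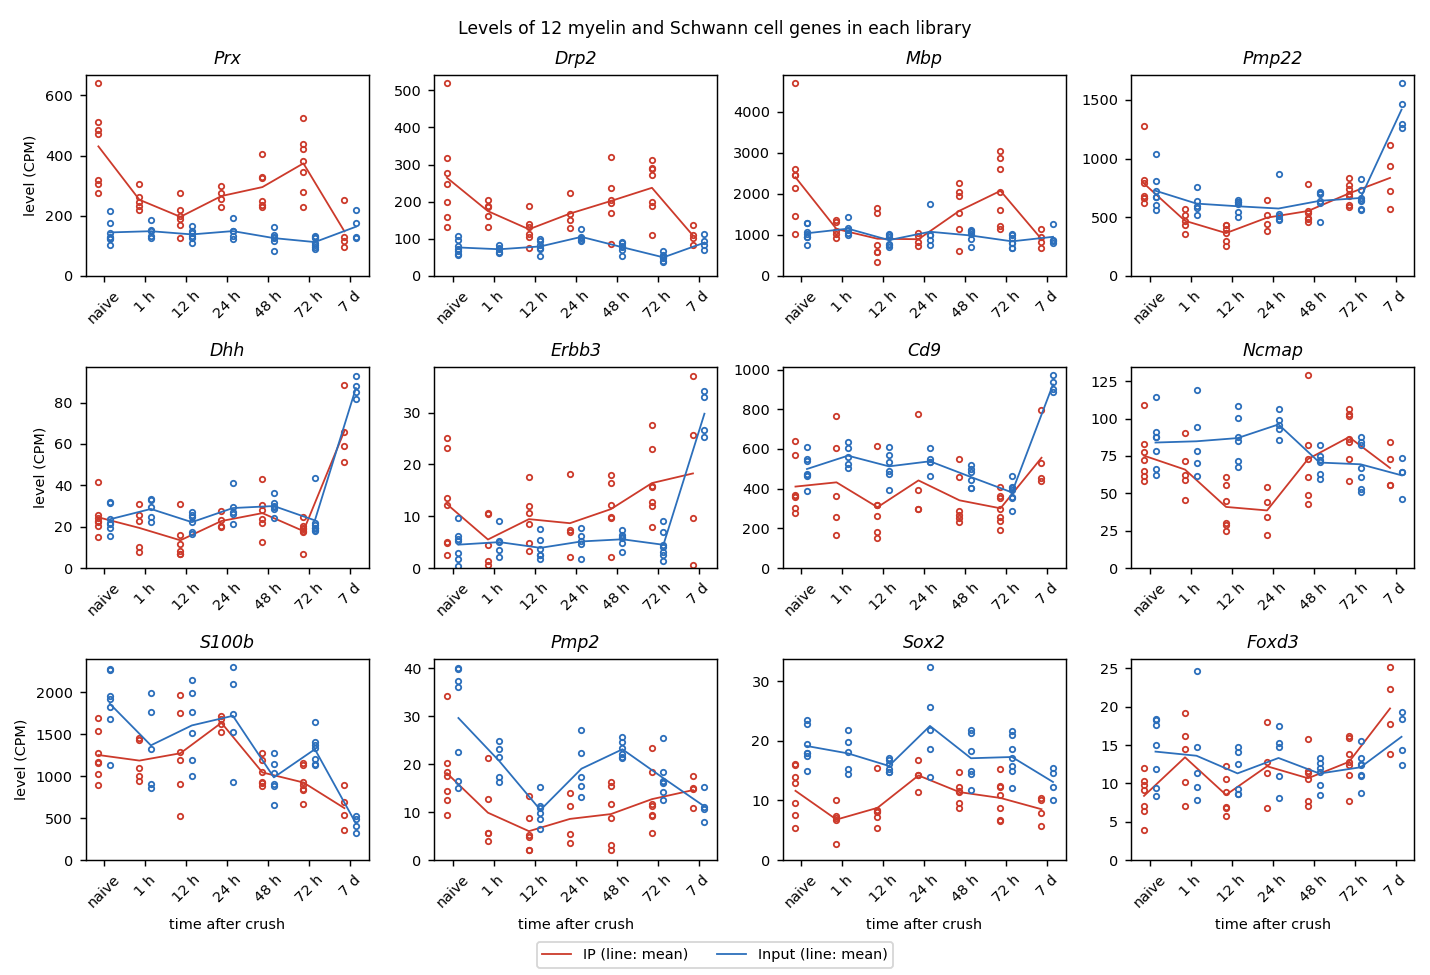
Level in CPM of 12 of the genes in each library, with IP in red and Input in blue; lines join group means. Prx, Drp2 and Mbp are low in IP at 12 h and at 7 d, and Pmp22, Dhh, Erbb3 and Cd9 are high in Input at 7 d, where the 4 Dhh libraries lie between 81.7 and 93.1 CPM.

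Of the 5 membrane and raft proteins, 4 rose in Input at 7 d and Ncmap fell. Of all genes 28.3% rose, 25.1% fell and 53.5% were called in either direction there. Cd9, a tetraspanin of the myelin membrane that other cells share, was at 386 to 610.4 CPM (median 473) in naive Input, 506, 525, 561, 603 and 637 CPM at 1 h, and 393 to 612 CPM (median 513) at 12 h. It was at 462, 535, 536, 551 and 605 CPM at 24 h, 405 to 519 CPM (median 462) at 48 h, 285 to 465 CPM (median 395) at 72 h and 889, 900.1, 938 and 974 CPM at 7 d. All 4 libraries at 7 d were above every other Input library in this gene. It was lower at 72 h (-0.39 ± 0.10, adjusted p = 0.00374) and higher at 7 d (0.92 ± 0.12, adjusted p = 1.13e-08). In IP it was at 278 to 639.7 CPM (median 364) in naive and 439.9, 454, 532 and 797 CPM at 7 d, groups that overlapped, and the change of 0.38 ± 0.30 was not called. Its step from 72 h to 7 d in IP was 0.86 ± 0.30, adjusted p = 0.0447, a call that ended when any 1 of the libraries of either time was left out. It was -0.040 with the Rn45s and Lars2 share as a covariate.

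The other members of this group that rose in Input at 7 d were Pllp, a small raft protein (1.01 ± 0.20, adjusted p = 5.69e-05), and Mal, which carries raft membrane to myelin (0.72 ± 0.13, adjusted p = 6.47e-06). Cnp, a protein of non-compact myelin that keeps cytoplasmic channels open, rose as well (0.64 ± 0.16, adjusted p = 0.00112). It was at 111 to 191 CPM (median 137) in naive Input and 204, 208, 208 and 226 CPM at 7 d, with no overlap, and it was higher at 48 h (0.47 ± 0.15), as was Mal (0.30 ± 0.11). With the Rn45s and Lars2 share as a covariate its 7 d change was -0.0087 and was not called. Ncmap, a membrane protein of non-compact myelin, was low in IP at 24 h. It was at 57.9 to 109 CPM (median 72.1) in naive IP, 24.9 to 61.0 CPM (median 37.6) at 12 h, 21.9, 34.2, 43.9 and 54.1 CPM at 24 h and 42.9 to 129 CPM (median 67.0) at 48 h. All 4 libraries at 24 h were below all naive ones, and the change was -1.002 ± 0.27, adjusted p = 0.0367. The 12 h change of -0.84 ± 0.24 did not pass (adjusted p = 0.0534). The 24 h call lay close to the threshold and ended without IP 24 h replicate 2, 3 or 4 and in many other fits that left out 1 library. In Input Ncmap was at 62.5 to 115 CPM (median 87.7) in naive libraries and 46.2, 64.0, 64.2 and 73.8 CPM at 7 d (-0.40 ± 0.17, adjusted p = 0.0379). This call ended without Input 7 d replicate 1, 2 or 3, and the change was -0.08 with the Rn45s and Lars2 share as a covariate.

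Of the 2 lipid enzymes Ugt8a was called at 7 d in IP and Fa2h in Input, and no test set one against the other. Ugt8a, which makes galactosylceramide, was at 12.9 to 42.4 CPM (median 22.5) in naive IP and 1.19, 5.60, 9.51 and 18.4 CPM at 7 d. There 1 of the libraries lay within the naive range, and the change was -1.49 ± 0.51, adjusted p = 0.0313. This call ended without IP 7 d replicate 1, 2 or 3, with a change of -1.05 without replicate 3, and with the Rn45s and Lars2 share as a covariate (-1.36, adjusted p = 0.259). In Input Ugt8a was lower at 72 h (-0.76 ± 0.20, adjusted p = 0.00333) and not called at 7 d (0.39 ± 0.22). Fa2h, the fatty acid 2-hydroxylase of the same lipids, was at 4.58 to 11.6 CPM (median 9.84) in naive Input and 17.5, 18.5, 19.97 and 23.4 CPM at 7 d, with no overlap, and rose by 1.17 ± 0.21, adjusted p = 6.16e-06. In IP at 7 d its libraries were at 0.0745, 14.1, 22.7 and 29.5 CPM and it was not called.

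Of the 7 proteins of axon contact, nodes and junctions, 2 fell in IP at 12 h and 3 rose and 1 fell in Input at 7 d. Of all genes 0.783% fell in IP at 12 h, and 28.3% rose, 25.1% fell and 53.5% were called in either direction in Input at 7 d. Mag, the myelin-associated glycoprotein of the inner membrane, was at 9.13 to 28.7 CPM (median 21.6) in naive IP and 3.50 to 14.1 CPM (median 7.94) at 12 h (-1.18 ± 0.33, adjusted p = 0.0475). Cldn19, the claudin of Schwann cell tight junctions, was at 28.6 to 56.1 CPM (median 34.1) and 9.81 to 20.3 CPM (median 15.0), with no overlap (-1.22 ± 0.24, adjusted p = 0.00161). The Mag call lay close to the threshold and ended in many fits that left out 1 library, among them the one without IP naive replicate 1, where it was -1.07. In Input at 7 d Mag rose by 0.70 ± 0.24, adjusted p = 0.0121, and Gldn (gliomedin, a ligand that gathers sodium channels at nodes) by 1.10 ± 0.21, adjusted p = 2.79e-05. Cadm4, an adhesion molecule of the inner membrane, rose by 0.55 ± 0.17, adjusted p = 0.0054. Gldn had been lower at 48 h (-0.53 ± 0.20), and at 7 d its libraries were at 18.9, 19.99, 22.8 and 30.3 CPM against 9.50 to 13.7 CPM (median 10.3) in naive ones. Mpp6, a membrane scaffold of the incisures of myelin, fell from 28.7 to 55.7 CPM (median 38.1) to 21.0, 24.0, 24.5 and 28.3 CPM (-0.64 ± 0.14, adjusted p = 0.000128). In IP it was at 21.9 to 61.3 CPM (median 31.3) and 41.4, 49.0, 53.4 and 55.1 CPM (0.45 ± 0.28, not called). Gjb1 and Gjc3, connexins of gap junctions, and Cldn19 were not called in Input against naive, with changes at 7 d of 0.55 ± 0.24, 0.30 ± 0.19 and 0.31 ± 0.21.

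Dhh, desert hedgehog, was called higher at 7 d in both fractions. In Input it was at 15.6 to 31.8 CPM (median 21.9) in naive libraries, 22.3, 24.7, 29.6, 32.8 and 33.4 CPM at 1 h, and 16.4 to 27.0 CPM (median 23.3) at 12 h. It was at 21.3, 26.1, 27.0, 29.6 and 41.1 CPM at 24 h, 24.2 to 36.2 CPM (median 29.6) at 48 h, 17.9 to 43.8 CPM (median 19.4) at 72 h and 81.7, 84.9, 88.2 and 93.1 CPM at 7 d. All 4 libraries at 7 d were above every earlier Input library, and the earlier groups overlapped with naive. The change was 1.91 ± 0.19, adjusted p = 2.6e-11 at 7 d, a 3.77-fold rise, and at the other times it ran from -0.08 to 0.35 with no call. In IP it was at 15.0 to 41.8 CPM (median 22.8) in naive libraries, 6.75 to 30.8 CPM (median 10.1) at 12 h, 19.7, 20.4, 23.3 and 27.5 CPM at 24 h and 51.4, 59.1, 65.9 and 88.7 CPM at 7 d. The 7 d group did not overlap with naive. The IP change at 7 d was 1.36 ± 0.34, adjusted p = 0.00308, and 0.92 and not called with the Rn45s and Lars2 share as a covariate. Lgi4, a secreted ligand by which Schwann cells control myelination, was higher in Input at 24 h (0.74 ± 0.13, adjusted p = 7.57e-05) and at 7 d (0.83 ± 0.14, adjusted p = 2.92e-06). It was at 41.3 to 61.4 CPM (median 50.4) in naive libraries, 68.6, 75.5, 87.8, 90.0 and 100.02 CPM at 24 h and 83.1, 85.5, 89.2 and 92.3 CPM at 7 d. Both later groups were above every naive library.

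Erbb3, the neuregulin receptor of the Schwann lineage, had the largest rise of the list in Input. It was at 0.335 to 9.75 CPM (median 5.16) in naive Input, 1.34 to 9.16 CPM (median 4.00) at 72 h and 25.4, 26.6, 33.0 and 34.3 CPM at 7 d. The 4 libraries at 7 d were above all others, and the change was 2.72 ± 0.44, adjusted p = 2.02e-06, or 6.58-fold. In IP its libraries were scattered, at 2.48 to 25.1 CPM (median 12.2) in naive and 0.596, 9.65, 25.8 and 37.1 CPM at 7 d, and the change of 0.49 ± 0.62 was not called (adjusted p = 0.607). Fgfr3, a fibroblast growth factor receptor, was low in both fractions. It was at 0 to 1.53 CPM (median 0.904) in naive Input and 0 to 4.29 CPM (median 1.09) in naive IP, and was called at no time in either fraction.

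The 5 transcription factors were called at few times. Egr2, the factor of the myelinating state, was at 7.84 to 18.2 CPM (median 13.9) in naive Input and 20.9, 22.1, 23.1, 24.7 and 25.6 CPM at 1 h, where all 5 libraries were above all naive ones (0.82 ± 0.19, adjusted p = 0.0103). It is also an immediate early gene in neurons and other cells. At 72 h it was at 5.93 to 10.9 CPM (median 7.61) and lower (-0.66 ± 0.18, adjusted p = 0.00543), and it was not called in IP. Sox10, the factor of the whole lineage, was lower in Input at 1 h (-0.52 ± 0.13, adjusted p = 0.0129) and higher at 7 d (0.62 ± 0.13, adjusted p = 8.37e-05). Its libraries were at 43.3 to 62.5 CPM (median 52.8) in naive mice, 26.9, 27.7, 39.6, 43.9 and 44.8 CPM at 1 h and 75.4, 77.7, 78.7 and 83.7 CPM at 7 d. Pou3f1, the factor of promyelinating Schwann cells, was lower in IP at 12 h (-1.30 ± 0.34, adjusted p = 0.0299), with 9.68 to 22.3 CPM (median 14.5) in naive and 2.80 to 10.2 CPM (median 6.48) at 12 h. Without the libraries over 50% Rn45s and Lars2 that change was -1.20 and not called.

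Sox2, a factor of immature glia and of satellite glia, was at 14.9 to 23.4 CPM (median 18.0) in naive Input and 10.1, 12.3, 14.6 and 15.4 CPM at 7 d. The ranges met at 14.9 to 15.4 CPM, and it fell (-0.51 ± 0.18, adjusted p = 0.0173). With the Rn45s and Lars2 share as a covariate this was -0.02. In IP it was at 5.35 to 16.1 CPM (median 12.9) in naive and 5.69, 7.88, 10.1 and 10.5 CPM at 7 d and was not called. Foxd3, a factor of the neural crest that marks glial precursors, was at 3.90 to 12.0 CPM (median 9.09) in naive IP and 13.9, 17.7, 22.3 and 25.2 CPM at 7 d, where all 4 were above the naive libraries (1.17 ± 0.34, adjusted p = 0.0106). With the share covariate this was 1.22 and not called (adjusted p = 0.0808). In Input Foxd3 was at 8.37 to 18.3 CPM (median 15.0) and 12.4, 14.3, 18.4 and 19.3 CPM, and the change of 0.22 ± 0.24 was not called.

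S100b, a calcium-binding protein of Schwann cells, satellite glia and some large neurons, fell in both fractions at 7 d. In Input it was at 1138 to 2273 CPM (median 1919) in naive libraries, 855, 902, 1322, 1770.2 and 1991 CPM at 1 h, and 1006 to 2151 CPM (median 1643) at 12 h. It was at 932, 1522, 1740.2, 2104 and 2304 CPM at 24 h, 656 to 1274 CPM (median 977) at 48 h, 1137 to 1647 CPM (median 1337) at 72 h and 329, 406, 488 and 525 CPM at 7 d. The 4 libraries at 7 d were the lowest of all Input libraries in this gene. The changes called were -0.92 ± 0.20, adjusted p = 0.00035 at 48 h, -0.50 ± 0.19, adjusted p = 0.0487 at 72 h and -2.06 ± 0.24, adjusted p = 1.99e-09 at 7 d, the last a ratio of 0.240 to naive. With the Rn45s and Lars2 share as a covariate the 7 d change was -1.11. In IP it was at 899 to 1699.7 CPM (median 1174) in naive, 1531, 1626, 1678 and 1714 CPM at 24 h, and 674 to 1153 CPM (median 898) at 72 h. At 7 d it was at 364, 536, 687 and 890.0 CPM, when all 4 libraries were below all naive ones (-1.08 ± 0.23, adjusted p = 0.000757). Arhgef10, a guanine nucleotide exchange factor whose variants slow nerve conduction in humans, rose in Input at 7 d by 0.51 ± 0.19, adjusted p = 0.0217, a call that ended without Input 7 d replicate 1 or 4 or naive replicate 1. It was not called in IP.

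In naive mice the IP to Input ratio differed widely among the 30 genes, from -0.74 for Foxd3 to 1.78 for Drp2 among those called. In the fit of all 79 libraries, 10 of 30 were higher in IP and 3 lower, against 28.3% and 18.3% of all genes (46.6% in either direction). The median ratio was 0.16 over the 30 genes and 0.26 over all genes tested. The higher ones were both scaffold proteins, Drp2 (1.78 ± 0.21, adjusted p = 4.22e-10) and Prx (1.57 ± 0.19, adjusted p = 3.35e-10), the receptor Erbb3 (1.43 ± 0.50, adjusted p = 0.0154), and Mbp (1.21 ± 0.24). So were both lipid enzymes (Ugt8a at 1.07 ± 0.32 and Fa2h at 0.88 ± 0.35), 3 junction proteins (Cldn19, Mag and Gjc3, at 0.93, 0.87 and 0.81) and Arhgef10 (0.93 ± 0.21). The lower ones were Foxd3 (-0.74 ± 0.24, adjusted p = 0.00949), Sox2 (-0.72 ± 0.22, adjusted p = 0.00546) and S100b (-0.57 ± 0.20, adjusted p = 0.0151). None of the 5 membrane and raft proteins was called. The naive values of these genes are given above for each fraction: all 7 IP libraries were above all 7 Input libraries for Prx and Drp2, while the 2 fractions overlapped for Erbb3, Foxd3, Sox2 and S100b. Size factors of the DESeq2 type moved the median ratio of all genes in naive mice to 0.40, with 11 of 30 higher and 3 lower. Each call here is tested against a ratio of 0 on the log2 scale, not against the median of all genes.

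After crush the median log2 ratio of the 30 genes was -0.15, -0.26, -0.09, 0.21, 0.35 and -0.13 at the 6 times in order. That of all genes tested was 0.18, 0.30, 0.17, 0.29, 0.28 and 0.06. At 1 h 3 of 30 were higher and 4 lower in IP (of all genes 20.2% higher, 18.4% lower and 38.6% in either direction), and at 12 h 4 and 10 (28.2% higher, 20.7% lower and 49% in either direction). At 24 h 3 were higher and 5 lower (19.6% higher, 13.5% lower and 33% in either direction), and at 48 h 9 and 3 (28.7% higher, 19.2% lower and 47.9% in either direction). At 72 h 12 were higher and 2 lower (27.9% higher, 18.7% lower and 46.5% in either direction), and at 7 d 1 and 1 (7.84% higher, 3.52% lower and 11.4% in either direction). With DESeq2-type size factors the split was 5 higher and 2 lower at 1 h and 6 and 8 at 12 h. Drp2 had log2 ratios of 1.78, 1.28, 0.66, 0.67, 1.38, 2.24 and 0.28 from naive to 7 d, and Prx of 1.57, 0.77, 0.51, 0.83, 1.23, 1.73 and -0.14. Both were higher in IP at every time but 7 d, when neither was called. With pairs of the same time and number as a block Drp2 at 24 h was 0.62 and not called. Ncmap was lower in IP only at 12 h (-1.10 ± 0.21, adjusted p = 1.22e-05) and 24 h (-1.31 ± 0.25, adjusted p = 3.52e-05). Cnp was lower at 1 h, 12 h, 24 h and 48 h, with ratios from -1.20 to -0.94. Arhgef10 was higher in IP at each of the 6 times before 7 d, with 1.59 at 48 h as its highest ratio. At 7 d the 2 genes called were Mpp6, higher in IP (1.02 ± 0.25, adjusted p = 0.00346), and Pmp22, lower (-0.76 ± 0.21, adjusted p = 0.00983). Without IP 7 d replicate 3 or Input 7 d replicate 4 the Pmp22 ratio was -0.62 or -0.66 and was not called, and without IP 7 d replicate 4 the count of 2 was 4. At 24 h the count of 8 was 5 without IP 24 h replicate 3.

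**Figure D3:**
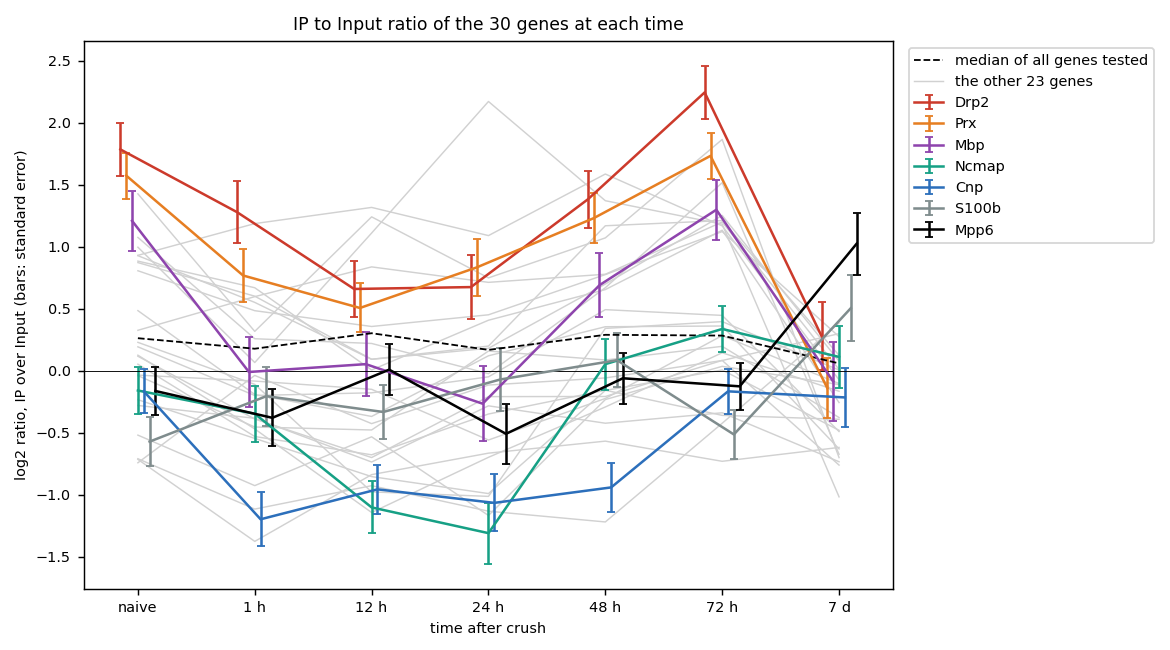
Log2 ratio of IP over Input (y axis) at each time after crush (x axis) for the 30 genes, with 7 of them coloured with standard errors, the rest in grey and the median of all genes tested as a dashed line. Drp2 and Prx run from 1.78 and 1.57 in naive mice down to 0.66 and 0.51 at 12 h, up to 2.24 and 1.73 at 72 h, and to 0.28 and -0.14 at 7 d.

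Whether IP changed differently from Input was tested as the difference of the changes from naive in the fit of all 79 libraries. At 7 d the change of 7 genes was lower in IP than in Input and that of 2 was higher, against 7.28% higher, 5.17% lower and 12.4% in either direction among all genes. Lower were Prx (-1.71 ± 0.30, adjusted p = 0.000197), Drp2 (-1.50 ± 0.34, adjusted p = 0.0025), Ugt8a (-1.75 ± 0.53, adjusted p = 0.0202), Mbp (-1.30 ± 0.40, adjusted p = 0.0218), Cadm4 (-1.12 ± 0.39), Arhgef10 (-1.004 ± 0.34) and Pmp22 (-0.88 ± 0.26, adjusted p = 0.0175). Higher were Mpp6 (1.19 ± 0.31, adjusted p = 0.00766) and S100b (1.08 ± 0.33, adjusted p = 0.0229). For Prx, Drp2, Ugt8a and Mbp the IP change alone was called and the Input change was not, for Pmp22, Cadm4, Arhgef10 and Mpp6 the Input change alone, and S100b fell in both but by less in IP. With the Rn45s and Lars2 share as a covariate in this fit, all 9 differences remained among 11 called. With each pair of IP and Input libraries of the same time and number as a block, 9 were called, 8 of them among the 9, and Mbp, at -1.18, was not. Without IP 7 d replicate 3 there were 3 calls and without Input 7 d replicate 4 there were 4. At 1 h, 12 h, 24 h, 48 h and 72 h edgeR called 0 of 30, with 4, 12, 9, 3 and 2 genes at an unadjusted p under 0.05 and 1, 0, 1, 0 and 0 called by DESeq2. In the same order 0.0102%, 0.0153%, 0.0102%, 0.0204% and 0% of all genes were called. The test over all 6 times called 12 of 30, against 8.28% of all genes. The smallest p were those of Prx (adjusted p = 0.000102), Drp2 (adjusted p = 0.000134) and Ncmap (adjusted p = 0.000348), and 7 were called without Input 7 d replicate 1 or 4.

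**Figure D4:**
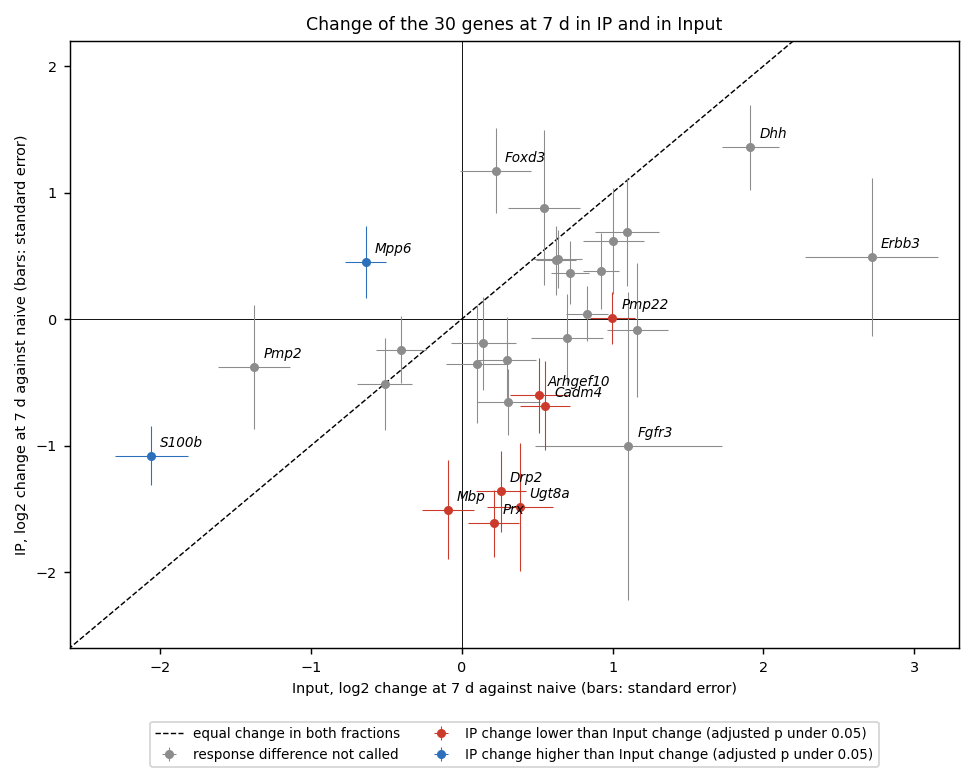
Log2 change at 7 d against naive in Input (x axis) and in IP (y axis) for the 30 genes, with standard errors and a dashed line of equal change. The 7 genes in red changed less upward or further downward in IP (Prx is at 0.21 in Input and -1.61 in IP), and the 2 in blue, Mpp6 and S100b, lie above the line.

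Lists of other genes known from Schwann cells were followed at 7 d too. Some of their members, such as Gap43, Jun, L1cam and Ncam1, are known from injured sensory neurons as well, and these bulk samples do not show which cells the RNA came from. In Input, of 18 further genes of Schwann signalling and myelin, 9 rose and 4 fell, where 28.3% of all genes rose and 25.1% fell. Among those that rose were the Lgi4 receptor Adam22 1.30 ± 0.14 and dystroglycan, the laminin receptor to which Drp2 and Prx are tied (Dag1 1.36 ± 0.18). Of 14 genes of repair and immature Schwann cells 11 could be tested, and 8 rose and 0 fell, with L1cam 2.14 ± 0.16, Ncam1 1.92 ± 0.12 and Ngfr 1.63 ± 0.13, which are also 3 of the 6 markers of nonmyelinating Schwann cells. Of those 6, 5 rose, and their summed level was 745 to 895 CPM (median 803) at 7 d against 270.4 to 392 CPM (median 331) in naive Input. In IP at 7 d, 3 of the 18 rose and 4 fell, and 6 of 13 tested repair genes rose, where 10.3% of all genes rose and 10.5% fell. Of the 18, Zeb2 -1.37 ± 0.25 and Utrn -1.30 ± 0.24 were among those that fell in IP, and Nrg1 1.29 ± 0.33 among those that rose. Among the repair genes that rose in IP were the growth cone protein Gap43 2.82 ± 0.22 and the transcription factor Jun 1.49 ± 0.20. Neuron markers went both ways there: Stmn2 1.72 ± 0.21 rose, and Scn10a -1.07 ± 0.25 and Nefm -1.62 ± 0.42 fell. The response differed between fractions at 7 d for 5 of the 18, all lower in IP, where 5.17% of all genes were lower. Among these 5 were the Erbb3 partner Erbb2 -1.76 ± 0.51 and Dag1 -1.20 ± 0.33. Of the 14 repair genes 3 were lower and 1, Gap43 1.52 ± 0.29, higher.

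Markers of other cells in the ganglion were followed in Input at 7 d too. Their part in the changes of the 30 genes was not tested. In Input at 7 d 28.3% of all genes rose and 25.1% fell, and 53.5% were called in either direction. The summed level of 8 satellite glia markers was 5502 to 7077 CPM (median 6184) at 7 d against 2428 to 3385 CPM (median 2849.9) in naive Input, and 4 of 8 rose and 1 fell. That of 9 macrophage markers was 334 to 631 CPM (median 424) against 174 to 491 CPM (median 239), and 5 of 9 rose. That of 6 fibroblast markers was 545 to 838 CPM (median 641) against 563 to 1242 CPM (median 817), with 1 of 6 lower. That of 5 endothelial markers was 41.8 to 56.4 CPM (median 48.6) against 23.5 to 59.2 CPM (median 47.3), with 2 of 5 higher and 1 lower. That of 10 neuron markers was 18722 to 21980.0 CPM (median 20559.8) against 17042 to 22537 CPM (median 19464), with 4 of 10 higher and 4 lower. The 30 genes themselves summed to 4706 to 5638 CPM (median 4801) at 7 d and 4426 to 5748 CPM (median 4929.8) in naive Input, ranges that overlapped. In IP they summed to 3567 to 4549.7 CPM (median 4036) and 4945 to 9595 CPM (median 6156), with no overlap. These sums weigh each gene by its reads. For the calls in IP at 7 d that follow, 10.3% of all genes rose, 10.5% fell and 20.8% were called in either direction. In IP at 7 d the satellite glia markers summed to 2802 to 3727 CPM (median 3131) against 1219.6 to 2452 CPM (median 1619), with 1 of 8 higher and 2 lower. The fibroblast markers summed to 315 to 671 CPM (median 465) against 598 to 1381 CPM (median 870.4), and 2 of 6 fell (Dcn -1.15 ± 0.24 and Col3a1 -1.10 ± 0.40). The macrophage markers summed to 241 to 367 CPM (median 302) against 138 to 632 CPM (median 259), with C1qa 1.05 ± 0.33 the 1 of 9 called. The endothelial markers summed to 22.3 to 46.4 CPM (median 35.6) against 30.8 to 84.9 CPM (median 56.5), with Kdr -2.37 ± 0.75 the 1 of 5 called. The neuron markers summed to 15865 to 19125 CPM (median 17899.6) against 13330.5 to 18969.8 CPM (median 14709), with 2 of 10 higher and 2 lower (Scn10a -1.07 ± 0.25 and Nefm -1.62 ± 0.42). The part of these shifts in the IP falls of Mbp, Prx, Drp2, Ugt8a and S100b was not tested.

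**Figure D5:**
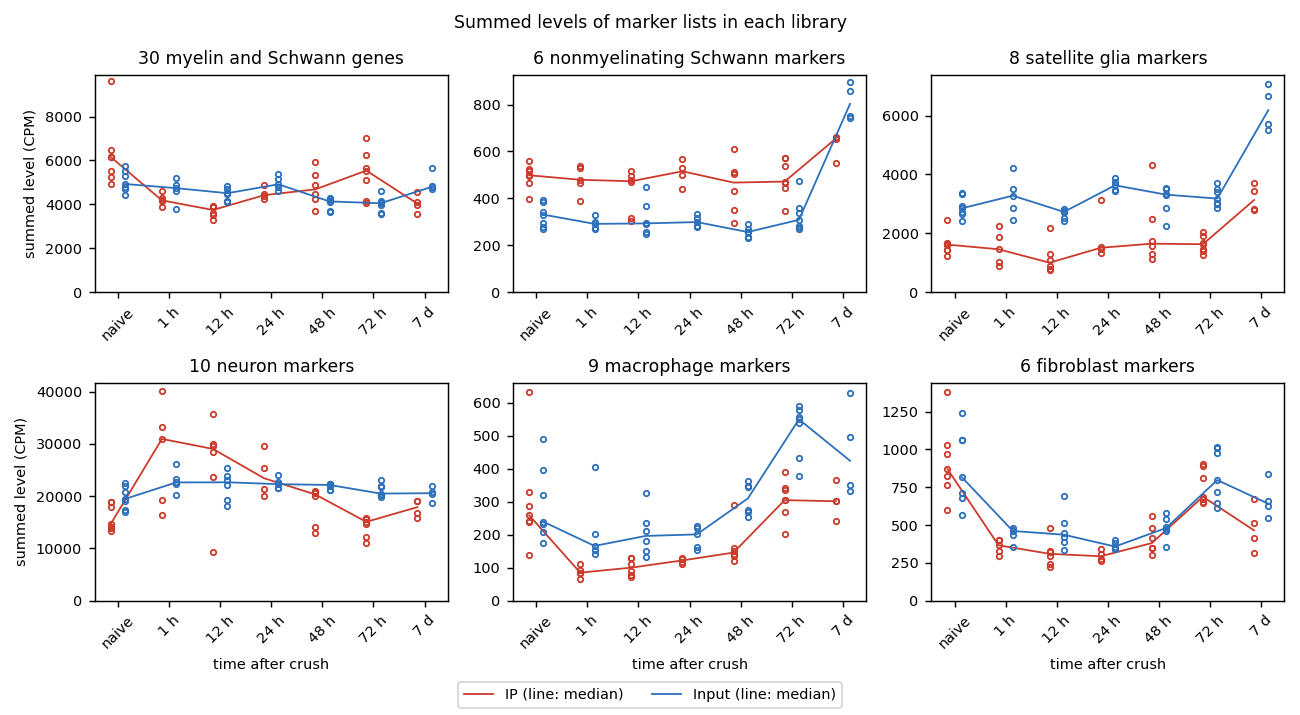
Summed level in CPM (y axis) of the 30 genes and of 5 marker lists in each library by time after crush (x axis), with IP in red and Input in blue and lines joining group medians. Nonmyelinating Schwann and satellite glia markers are high in Input at 7 d (medians 803 and 6184 CPM), and macrophage and fibroblast markers are low in IP at 12 h.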

How the data were processed

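The values used are whole-number read counts that the authors deposited for each gene symbol and library, without normalization, and a second deposited table, of counts per genomic interval, was not used. SMART-Seq v4 and Nextera XT libraries were read from both ends at 75 bp, per the labels' protocols. The submitters' processing notes name bcl2fastq 2.17, STAR, HTSeq, GRCm38 and mm10. Counting strand and settings are not stated in the sources used, so overlapping or antisense genes could share reads. Of 24060 symbols 27 had the form of a date and were dropped.

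The labels do not say whether libraries of a group come from separate animals, so p-values measure only the spread between these libraries. Each fraction was fitted in edgeR 4.0.16 (R 4.3.3) with its 7 groups, after filterByExpr and TMM scaling, and tested by robust quasi-likelihood F-tests (18656 genes in IP, 16217 in Input). A fit of all 14 groups (19584 genes) gave IP against Input and the differences between responses. Benjamini-Hochberg adjustment ran over every gene tested, with calls at 0.05. Standard errors came from the F statistics, and CPM from the library sizes and TMM factors of the fit of 14 groups. Alternatives were DESeq2 1.42.0, RLE (DESeq2-type) size factors, no filter, a covariate for Xist minus Ddx3y, the replicate number as a block, and leaving out libraries. A covariate for the Rn45s and Lars2 share was chosen after seeing the data, as was leaving out single libraries of the larger groups. On simulated counts with 100 genes changed at 7 d by a log2 of 1, 74% were called in Input (15975 genes), 23% in IP (17770 genes) and 13% for the response difference (18244 genes). With a log2 of 2 these were 98%, 72% and 77%. Genes of low mean count were left out of those changed. The changed genes were also far fewer than the 8668 called in Input and 3875 in IP at 7 d in the data. These rates are therefore not those for the 30 genes in the real fits. Of the 192 within-group pairs 0 held the same values, and in each the counts differed by more than sampling noise (chi-square over its degrees of freedom 9.91 or more). Genes given library by library were chosen by a rule: in each fraction the 4 of smallest p over all times and the largest rise and fall called, the 3 highest and 3 lowest naive ratios called, and the 3 of smallest p for the response difference. Others are examples of their role. The 30 genes, the 8 further lists (76 entries, all found) and the rules were chosen with earlier results of these data known. Promoter windows are from RefSeq, GRCm38.p6.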

Additional observations from a re-analysis of the deposited data

Results flagged for a closer look

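The 10 genes chosen by the rule above were screened for a library far from the others: Prx, Dhh, Pmp22, S100b, Cd9, Erbb3, Foxd3, Sox2, Drp2 and Ncmap. The other genes, some of them also given library by library, were not screened. In 140 groups of 4 to 7 libraries the gap to the nearest neighbour was set over the range of the group. Of these, 9 passed the 95% limit of Dixon's test, where chance flags about 5% of groups. Dhh in IP naive replicate 4 was the highest of 7 libraries at 41.8 CPM, with the next at 25.5 CPM (gap over range 0.608). Dhh in IP 72 h replicate 5 was the lowest of 7 libraries at 6.68 CPM, with the next at 17.4 CPM (gap over range 0.593). Dhh in Input 72 h replicate 5 was the highest of 7 libraries at 43.8 CPM, with the next at 21.8 CPM (gap over range 0.85). Pmp22 in IP naive replicate 1 was the highest of 7 libraries at 1274 CPM, with the next at 818 CPM (gap over range 0.698). Pmp22 in IP 48 h replicate 2 was the highest of 6 libraries at 783 CPM, with the next at 556 CPM (gap over range 0.712). Pmp22 in Input 24 h replicate 1 was the highest of 5 libraries at 867 CPM, with the next at 527 CPM (gap over range 0.878). Pmp22 in Input 48 h replicate 3 was the lowest of 6 libraries at 457 CPM, with the next at 621 CPM (gap over range 0.629). Cd9 in IP 12 h replicate 2 was the highest of 6 libraries at 614 CPM, with the next at 319 CPM (gap over range 0.635). Sox2 in IP 12 h replicate 1 was the highest of 6 libraries at 15.4 CPM, with the next at 8.41 CPM (gap over range 0.698). Naive IP replicate 1 was also the highest naive IP library in Mbp, Mag, Prx, Drp2 and Cldn19. With Pmp22 these are all the genes called lower in IP at 12 h except Pou3f1. The same library was the highest naive IP library in the sum of the whole gene list, at 9595 CPM with the next at 6463 CPM. So it was in the macrophage sum (632 CPM, next 329 CPM) and the fibroblast sum (1381 CPM, next 1030 CPM).

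The change after crush differed between IP and Input by the test of that difference itself in edgeR for 9 genes at 7 d and for 12 over all times. The differences at 7 d, as IP change minus Input change on the log2 scale, were -1.71 for Prx, -1.50 for Drp2, -1.75 for Ugt8a, -1.30 for Mbp, -1.12 for Cadm4, -1.004 for Arhgef10, -0.88 for Pmp22, 1.19 for Mpp6 and 1.08 for S100b. The adjusted p over all times was 0.000102 for Prx, 0.000134 for Drp2, 0.000348 for Ncmap, 0.00305 for Mbp, 0.00601 for Cnp, 0.0161 for Pou3f1, 0.0196 for Cldn19, 0.0248 for Arhgef10, 0.0258 for Mpp6, 0.0295 for Lgi4, 0.03 for Pmp22 and 0.0311 for Ugt8a. Cadm4 and S100b were called at 7 d and not over all times (adjusted p = 0.148 and 0.141).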

How the results depend on the processing

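Of 159 called values of single genes, 150 kept their direction and call with RLE size factors, 153 with DESeq2, 148 with no filter, 146 with the Xist and Ddx3y covariate, 148 without libraries over 50% Rn45s and Lars2, 144 with the replicate block and 134 with the Rn45s and Lars2 share covariate. Under that covariate 2 values reversed: Cd9 in IP from 72 h to 7 d (-0.040) and Cnp in Input at 7 d (-0.0087). DESeq2 was not run for the tests over all times. The counts of members called that moved by over 1.5 times follow, and the cause was not tested. With DESeq2 the count in IP was 4, 11, 8, 2 and 1 at the first 5 times, and that of the response difference was 1 at 1 h and 1 at 24 h. With the share covariate it was 3 at 1 h, 1 at 72 h, 3 at 7 d and 2 from 72 h to 7 d in IP and 5 at 24 h in Input. With no filter it was 0 at 1 h in IP and 1 at 24 h in Input, with the Xist and Ddx3y covariate 0 at 1 h and 0 at 12 h in IP, and without libraries over 50% Rn45s and Lars2 0 at 1 h in IP. With the replicate number as a block the count was 0 at 24 h and 3 from 72 h to 7 d in IP, and Mbp lost its response difference at 7 d (-1.18), and whether the numbers pair the libraries is not settled, since the labels do not say so and not every pair was over 0.1. The deviations of IP and Input libraries of the same number and time correlated at -0.106 to 0.208, with 8 of 39 over 0.1 and 21 of 39 highest with their own number. In the fits of a single fraction the block instead joined libraries of the same number at different times. Their deviations correlated at a median of 0.00182 in IP and 0.0216 in Input, so the numbers showed no pairing across times. Leaving out 1 library at a time, the count in IP was 0 to 1, 3 to 9, 0 to 2, 0 to 0, 0 to 0 and 6 to 7 at the 6 times in order. It was 2 to 6 from 72 h to 7 d and 14 to 17 over all times. In Input it was 1 to 4, 1 to 2, 1 to 3, 2 to 5, 5 to 7 and 17 to 20 in the same order, 22 to 24 from 72 h to 7 d and 22 to 26 over all times. For IP against Input it was 13 to 14, 5 to 9, 14 to 15, 5 to 11, 11 to 12, 14 to 14 and 1 to 4, with naive first. The fit of both fractions, which also gave the response difference, was repeated only without single libraries of 1 h, 24 h and 7 d. No single library of naive mice, 12 h, 48 h or 72 h was left out of it. Its ranges at those times therefore do not show how far they rest on single libraries of those times. For the response difference it was 0 to 1, 0 to 0, 0 to 1, 0 to 0, 0 to 0 and 3 to 11 at the 6 times and 7 to 13 over all times, with 3 at 7 d without IP 7 d replicate 3. Of 5311 values of single genes in these fits 5041 kept direction and call, 270 lost the call and 0 reversed. These include comparisons that do not hold the library left out. The genes tested and the trend of their spread were also held as in the full fit. Many of the values thus had little room to change, and the share kept is not a measure of how firm the calls are. RLE size factors moved the median IP to Input ratio of all genes by over 0.1 in naive mice and at 1 h, 12 h and 48 h, to 0.40, 0.34, 0.53 and 0.42, and that of the response difference at 7 d to -0.20. Over all genes the calls in IP went from 312 to 39 at 12 h with the Xist and Ddx3y covariate and from 3875 to 1096 at 7 d with the share covariate. The 4 to 7 libraries a group, and IP depths down to 3614942 counts, limit small changes of low genes.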
